A study of Mus musculus with 13 samples.

Results

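Macrophages of the mouse sciatic nerve were set against microglia of the mouse brain, the peripheral and the central end of a series of macrophage libraries from nervous tissue. The comparison used every gene of 9 of the 13 RNA sequencing libraries: the 4 labelled as sciatic nerve macrophages and the 5 labelled as brain microglia. Both groups were total RNA of C57BL/6J mice, with no genotype, treatment or time point that differed between them. The age and sex of the animals, the way the cells were isolated and whether each library came from its own animal are not in the sources used here, so the p-values below measure only the spread between these libraries. Reads were counted per gene symbol, and levels are given as CPM, counts per 1000000 reads of the scaled library size. A gene was called where edgeR's quasi-likelihood test gave an adjusted p under 0.05, and log2 fold changes are sciatic nerve over brain, given ± their standard error. Means are given ± the SD over the 4 sciatic nerve or the 5 brain libraries.

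Macrophages of every tissue depend on signalling through the receptor Csf1r and on the transcription factor PU.1 (Spi1), and take up dying cells, debris and lipoproteins. Beyond that core, their genes follow the tissue. Microglia are the parenchymal macrophages of the brain; they arise from yolk sac precursors, renew themselves locally, and need TGF-beta and the factor Sall1 to keep their identity, with surveillance of neurons through purinergic receptors such as P2ry12. Macrophages of the peripheral nerve lie in the endoneurium and epineurium beside Schwann cells, fibroblasts and vessels, have a contribution from blood monocytes, and clear myelin when a nerve is injured.

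Total counts ran from 15674228 to 18219910 in the sciatic nerve libraries and from 10877914 to 23498764 in the brain libraries, and this difference was within the spread (exact two-sided permutation p = 0.421). Mitochondrially encoded genes took 0.69 to 1.23% of counts in sciatic nerve and 0.41 to 3.79% in brain, and the highest share belonged to brain replicate 1, which was also the shallowest library. The exact two-sided permutation p was 0.984 for this share and 0.548 for the number of genes detected. The 50 most abundant genes took 30.9 to 33.9% of counts in sciatic nerve and 29.1 to 31.7% in brain. That share was higher in sciatic nerve (exact two-sided permutation p = 0.0238). The TMM factors that scaled the library sizes did not overlap, at 0.8117 to 0.8753 in sciatic nerve and 1.119 to 1.197 in brain. The first principal component of log2 CPM held 73.8% of the variance and split the tissues; the second, with 8.59%, set brain replicates 1 and 2 apart from the other brain libraries, and the third, with 4.71%, set sciatic nerve replicate 4 apart from the other 3. Xist was read in all 9 libraries, and 4 Y-linked genes together held at most 12 counts in either tissue. The brain libraries had no explanation of their column prefix, so their label was checked first. All 18 genes of a microglia list were lower in sciatic nerve (24.1% of all genes tested) and all 18 of a list of border and tissue macrophage genes were higher (23.2%), and no library went against its label. Both lists were chosen with earlier results of these data known, so these counts are not an independent check.

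The populations differed across the transcriptome. Of 12630 genes that passed the filter on low counts, 2935 (23.2%) were higher in sciatic nerve and 3038 (24.1%) were lower, which is 47.3% in either direction; without scaling beyond total counts, 2059 were higher and 4678 lower. By at least 2-fold, 2250 were higher and 2464 lower. The levels of the 4 sciatic nerve and 5 brain libraries did not overlap for 5363 genes (42.5%). The median log2 fold change over all genes tested was -0.093, and the median of its size was 0.92. Every count of a list below is to be read against these shares. Lists and their members were chosen with earlier results of these data known, so each count describes its list. Since a single bulk level is read per library, a gene carried by fewer cells cannot be told apart from one with less RNA per cell.

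**Figure D1:**
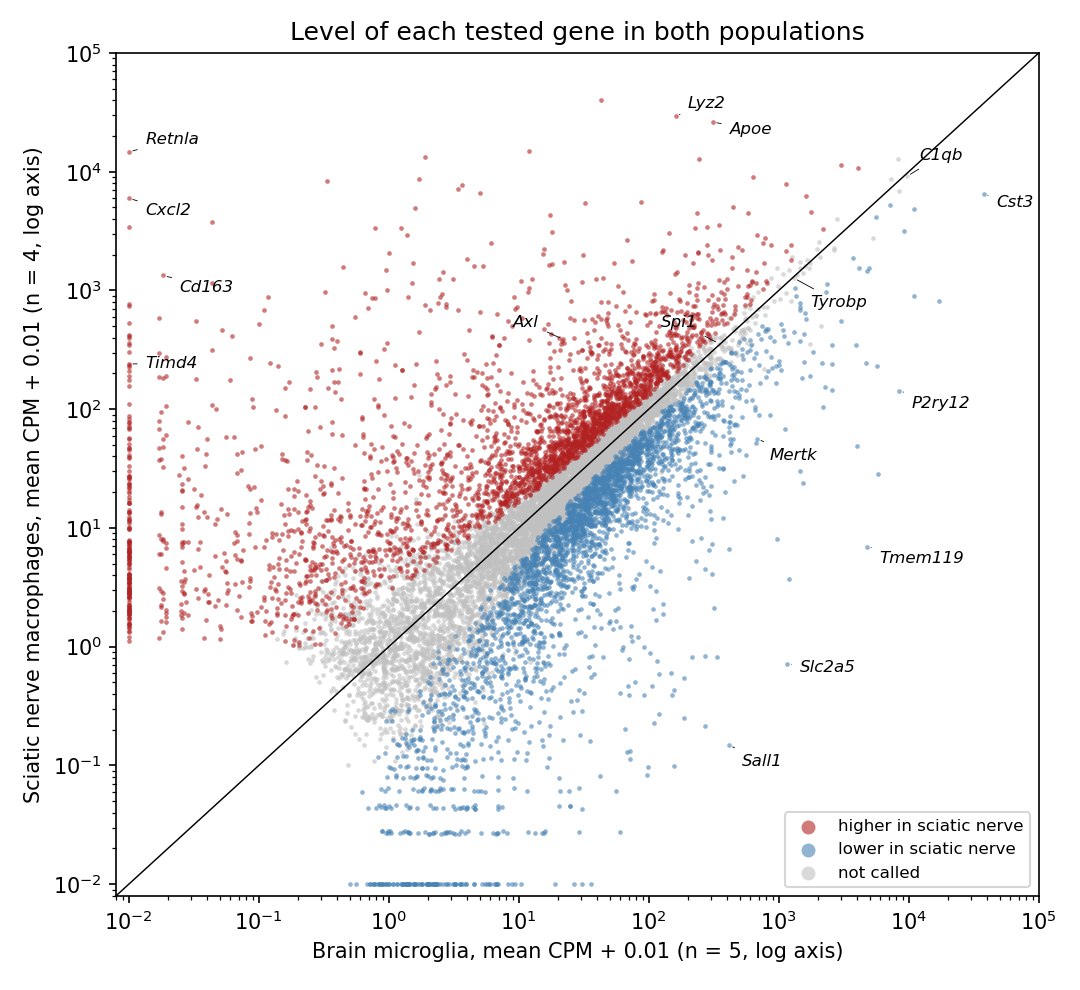
Mean level in sciatic nerve macrophages (vertical, 4 libraries) against mean level in brain microglia (horizontal, 5 libraries) for the 12630 genes tested, both as CPM plus 0.01 on log axes; red points were called higher in sciatic nerve, blue points lower, grey points were not called, and the diagonal marks equal levels. Retnla, Cxcl2 and Cd163 lie at the left edge, where brain libraries held 0 or 1 read, Sall1 and Slc2a5 lie near the lower edge, and Spi1, Tyrobp and C1qb lie on the diagonal.

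A set of genes was read in 1 tissue and hardly or not at all in the other. There were 65 genes with a mean of at least 10 CPM in sciatic nerve and no read in any brain library, and 5 of the reverse kind. Where all libraries of a tissue are at 0, the level may still reach 0.0518 CPM in sciatic nerve or 0.0268 CPM in brain, which is what 3 counts over the group are worth (counting error only). With a mean under 1 CPM in place of 0 counts as the limit, the numbers were 298 and 138. Retnla, which encodes the secreted resistin-like molecule alpha of alternatively activated macrophages, was the extreme. It stood at 14368, 11025, 11741 and 21389 CPM in the 4 sciatic nerve libraries, against no read in any of the 5 brain libraries, which makes it at least 546250-fold higher. Per kilobase of exon, the highest means of the sciatic nerve cells were those of Retnla (24425 CPM), of Cd74, the invariant chain of MHC class II (24118), and of the lysozyme gene Lyz2 (22282). The order of the first pair varied between libraries, with Cd74 above Retnla in sciatic nerve replicates 1 and 2. The top of the brain list on the same scale was the cystatin gene Cst3 at 29845 CPM per kilobase, and the complement gene C1qb stood at 8892 CPM per kilobase.

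The other 14 of the 15 largest rises among abundant genes were Cxcl2 and Cxcl1, neutrophil-attracting chemokines; the unnamed gene Gm6377; Tnip3, which binds the NF-kB regulator A20; the C-type lectins Mgl2, Cd209d, Cd209b, Cd209a and Cd209g; the haemoglobin scavenger receptor Cd163; the secreted phospholipase Pla2g2d; the growth factor Bmp2; the prostaglandin synthase Ptgs2; and the membrane protein Emp1. Their means in sciatic nerve ran from 306 CPM for Ptgs2 to 5984 CPM for Cxcl2. Brain libraries held no read of 11 of these 14, 1 read each of Cd163 and Emp1, and 4 reads of Mgl2. The 15 largest falls were Sall1, Upk1b, Slc2a5, Lrrc3, Spint1, Tmem119, Adora3, Tmem100, Ecscr, Capn3, Nav3, Abi3, Crybb1, Serpine2 and Slc1a3. Sall1, the factor that holds microglial identity, stood at 0.198, 0.0701, 0.219 and 0.0679 CPM in sciatic nerve, against 429, 396, 416, 428 and 399 CPM in brain (log2 fold change -11.48 ± 0.35). Tmem119, a membrane protein used as a microglial marker, stood at 8.63, 7.92, 6.79 and 4.41 CPM in sciatic nerve, against 3257, 5160, 5436, 5137 and 4919.7 CPM in brain (log2 fold change -9.43 ± 0.22). No sciatic nerve library came near any brain library for either gene.

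In each direction, the 10 genes with the smallest p-values were, among those higher, Cd163, Ier3, Emp1, Fosb, Metrnl, Cd74, Mmp9, Nfkbiz, Rnd3 and Marcksl1, and, among those lower, Sall1, Ldhb, Tmem119, Spint1, Liph, Usp2, Kcnd1, Lrrc3, Capn3 and Sparc. At the other end, 1014 genes stood at 100 CPM or more in both tissues, and for 504 of them the 95% interval of the fold change lay within 2-fold either way. The 10 whose interval lay closest around 0 were Rer1, Gdi2, Tor1aip1, Hfe, Mff, Rab2a, Immt, Dnajc3, Adh5 and Slc25a4, genes of vesicle transport, mitochondria and protein folding among them. Gdi2, which recycles Rab proteins from membranes, averaged 698 ± 54.4 CPM in sciatic nerve against 694 ± 52.5 CPM in brain, with a log2 fold change of 0.01 ± 0.13. Without scaling beyond total counts, Gdi2 had a log2 fold change of -0.43 and the other 9 lay between -0.47 and -0.39.

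The macrophage core was shared in part. Of 24 pan-macrophage genes, all tested, 9 were higher in sciatic nerve, 9 were lower and 6 were not called; without scaling beyond total counts 6 were higher and 13 lower. Spi1, the gene of PU.1, stood at 409, 361, 319 and 334 CPM in sciatic nerve, against 282, 407, 373, 337 and 347 CPM in brain; the libraries overlapped and the log2 fold change was 0.03 ± 0.15, or -0.42 without scaling beyond total counts. Tyrobp, the signalling adaptor of many myeloid receptors, had log2 fold change -0.03 ± 0.26 and C1qb -0.08 ± 0.17 on the same scale; with brain replicates 1 and 2 left out, Tyrobp was higher (0.41). Csf1r, the receptor of the survival factors Csf1 and Il34, was lower, at 4583, 4464, 5996 and 4227 CPM in sciatic nerve, against 5015, 7736, 13753, 14689 and 14058 CPM in brain, a log2 fold change of -1.20 ± 0.30; its highest sciatic nerve value lay above the lowest brain value. The pore-forming protein Mpeg1 fell to 105 ± 41.3 CPM in sciatic nerve, against 658 ± 103 CPM in brain.

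Of these pan-macrophage genes, Lyz2 and Cybb were the furthest apart on the side of the nerve. Lyz2 stood at 29831, 28840, 25243 and 33377 CPM in sciatic nerve, against 129.5, 227, 128, 161 and 159 CPM in brain (log2 fold change 7.51 ± 0.20). Cybb, the catalytic subunit of the phagocyte NADPH oxidase, stood at 1309, 1611, 1724 and 1742 CPM in sciatic nerve, against 0.788, 5.52, 0.608, 4.68 and 10.9 CPM in brain (log2 fold change 8.44 ± 0.61). Hvcn1, the voltage-gated proton channel that balances charge while this oxidase works, went the other way: it stood at 11.5, 6.17, 6.06 and 9.16 CPM in sciatic nerve, against 57.6, 96.4, 138, 131 and 148 CPM in brain (log2 fold change -3.79 ± 0.30). Cyba, the membrane partner of Cybb, was not called (log2 fold change -0.33 ± 0.23).

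Sequences upstream of transcription starts are shown for 3 genes of the NF-kB response and for a pair of phosphatidylserine receptors, whose values follow. They are RefSeq windows of build GRCm38.p6, from 250 bases before to 50 after the start, on the strand of the gene; 9131 of the 12630 genes tested had one. The first 3 belong to Cxcl1, Cxcl2 and Nfkbia, the last of which encodes the inhibitor that NF-kB induces against itself. Capitals mark a kappaB match, the letters GGANTTTCC on either strand, and in Nfkbia also one match of GAAANNGAA, the core of an interferon response element. The windows lie at chr5:90890995-90891294 (+ strand), chr5:90903649-90903948 (+ strand) and chr12:55492598-55492897 (- strand).
Cxcl1: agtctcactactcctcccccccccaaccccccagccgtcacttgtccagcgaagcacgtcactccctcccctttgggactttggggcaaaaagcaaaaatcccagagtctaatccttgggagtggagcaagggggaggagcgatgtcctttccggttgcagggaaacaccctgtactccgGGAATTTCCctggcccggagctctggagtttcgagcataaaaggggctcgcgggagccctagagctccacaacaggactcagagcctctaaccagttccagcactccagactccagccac
Cxcl2: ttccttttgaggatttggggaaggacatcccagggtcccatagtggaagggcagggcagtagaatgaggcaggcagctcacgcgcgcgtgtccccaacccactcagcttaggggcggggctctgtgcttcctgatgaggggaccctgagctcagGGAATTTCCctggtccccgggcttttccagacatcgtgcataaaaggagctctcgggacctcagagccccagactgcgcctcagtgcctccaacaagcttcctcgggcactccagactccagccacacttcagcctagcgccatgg
Nfkbia: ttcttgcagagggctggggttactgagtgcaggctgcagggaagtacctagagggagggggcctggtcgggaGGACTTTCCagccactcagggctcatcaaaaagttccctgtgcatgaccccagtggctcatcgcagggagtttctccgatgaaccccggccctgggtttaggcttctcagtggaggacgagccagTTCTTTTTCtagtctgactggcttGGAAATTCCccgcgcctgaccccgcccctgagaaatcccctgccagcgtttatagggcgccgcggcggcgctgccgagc

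Both chemokine windows held the same 9 letters once; of the 2 matches in Nfkbia, the second reads as those letters on the other strand and the first differs from them. Not every gene of these groups had such a match: the window of Tnip3 held no kappaB match, and those of Axl and Mertk held none of the motifs searched. A kappaB match stood in 1.25% of all promoter windows, in 1.38% of the genes tested here, in 2.52% of those called at least 2-fold higher in sciatic nerve and in 1.15% of those at least 2-fold lower. For TGANTCA, the letters of AP-1 sites, the last 3 shares were 4.79%, 7.7% and 3.85%. For TGCTGAC, a core of Maf sites, they were 3.58%, 3.82% and 3.62%. For GAGGAAGT, a PU.1 core, they were 3.48%, 4.31% and 3.68%. For GAAANNGAA they were 7.49%, 9.42% and 6.44%. TGACGTCA, TTCNNNGAA and CACGTGAC were also searched, and were in 3.44%, 7% and 4.42% of the genes tested. They were in 3.51%, 7.39% and 3.88% of the higher genes and in 2.87%, 7.24% and 3.51% of the lower genes. Among genes at least 64-fold higher (328) and lower (133), kappaB shares were 3.66% and 1.5%, and TGANTCA shares 13.7% and 6.77%. Those of TGCTGAC were 3.96% and 8.27% (13 and 11 genes), of GAGGAAGT 4.88% and 4.51%, and of GAAANNGAA 14.3% and 7.52%. Shares of TGACGTCA were 2.74% and 0.752%, of TTCNNNGAA 7.62% and 6.77%, and of CACGTGAC 1.22% and 1.5%. TATTTATA, which the Mef2 factors of microglia bind, was in 0.854% of the genes tested. It was in 1.05% of the higher genes (17 of 1624) and 0.862% of the lower genes (15 of 1740). Among genes with a fitted change of at least 64-fold, it was in 1.52% (5 of 328) and 2.26% (3 of 133). These are counts of letters in a short window and are not measurements of binding.

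The other pair lies on chromosome 11, at chr11:46810549-46810848 and chr11:46454681-46454980, both on the + strand. Timd4 and Havcr2 encode TIM-4 and TIM-3, receptors of one family that bind phosphatidylserine on dying cells. Capitals mark GAAANNGAA and then TGCTGAC, a core of the sites of Maf factors, in Timd4, and TGANTCA and then GAGGAAGT, a PU.1 core, in Havcr2.
Timd4: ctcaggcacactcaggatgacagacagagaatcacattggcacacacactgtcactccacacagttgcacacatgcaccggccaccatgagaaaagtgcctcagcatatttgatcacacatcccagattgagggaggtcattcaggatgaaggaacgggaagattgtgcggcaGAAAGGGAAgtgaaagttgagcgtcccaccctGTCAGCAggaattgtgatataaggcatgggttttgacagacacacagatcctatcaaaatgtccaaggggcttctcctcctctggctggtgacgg
Havcr2: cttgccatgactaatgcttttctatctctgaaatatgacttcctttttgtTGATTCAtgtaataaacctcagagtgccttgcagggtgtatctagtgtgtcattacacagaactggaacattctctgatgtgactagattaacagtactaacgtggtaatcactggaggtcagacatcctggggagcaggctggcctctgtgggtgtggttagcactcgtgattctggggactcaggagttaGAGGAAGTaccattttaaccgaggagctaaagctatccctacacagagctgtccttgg

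Receptors for dying cells lay on both sides. Of 29 genes of scavenging and efferocytosis, 24 were tested, with 9 higher, 9 lower and 6 not called; without scaling beyond total counts 7 were higher and 12 lower. Timd4 stood at 210.4, 219, 245 and 288 CPM in sciatic nerve, against no read in any brain library (at least 8984-fold higher). Havcr2 stood at 9.09, 8.06, 3.72 and 8.55 CPM in sciatic nerve, against 178, 206, 361, 414 and 379 CPM in brain (log2 fold change -5.38 ± 0.32). The ranges of the groups were apart for both genes, in opposite directions.

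The TAM receptor kinases Axl and Mertk, which bind phosphatidylserine through the bridging proteins Gas6 and Pros1, split in the same manner. Axl stood at 369, 338, 461 and 381 CPM in sciatic nerve, against 15.1, 22.9, 18.7, 18.2 and 35.1 CPM in brain (log2 fold change 4.14 ± 0.23). Mertk stood at 52.3, 42.3, 62.2 and 68.9 CPM in sciatic nerve, against 548, 557, 748, 820.2 and 737 CPM in brain (log2 fold change -3.60 ± 0.19). The ranges were apart for both receptors. Of the bridging proteins, Gas6, the only one of the pair that binds Axl, was higher (log2 fold change 2.45 ± 0.18), and Pros1 was not called (-0.85 ± 0.37). The integrin route of uptake was lower: Itgb3 averaged 0.381 ± 0.674 CPM in sciatic nerve against 91.3 ± 17.2 CPM in brain, Itgb5 246 ± 50.4 CPM in sciatic nerve against 2149 ± 606 CPM in brain, and their partner Itgav 30.3 ± 2.26 CPM in sciatic nerve against 206 ± 51.3 CPM in brain. Elmo1, which passes engulfment signals to Rac, also fell (log2 fold change -2.25 ± 0.23).

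Further members of this list are receptors of lipids and glycans. Cd36, a receptor of oxidised lipids and fatty acids, averaged 3334 ± 219.5 CPM in sciatic nerve against 0.78 ± 1.15 CPM in brain. Msr1, the class A scavenger receptor, averaged 449.8 ± 22.4 CPM in sciatic nerve against 1.7 ± 1.48 CPM in brain. Colec12, a collectin that binds myelin and amyloid as well as glycans, averaged 211 ± 21.6 CPM in sciatic nerve with no brain read. Lrp1, a large endocytic receptor, was lower (log2 fold change -1.77 ± 0.22).

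The lectin, Siglec and paired immune receptors leaned to the nerve, with 32 of 51 tested genes higher and 13 lower. Of the DC-SIGN family, Cd209a to Cd209g, all 7 members were higher, 6 of them with no read in any brain library. Mrc1, the macrophage mannose receptor, and Mrc2, its relative that takes up collagen, were opposed: Mrc1 averaged 2013 ± 338 CPM in sciatic nerve against 15.5 ± 6.79 CPM in brain, and Mrc2 0.0329 ± 0.0658 CPM in sciatic nerve against 30.7 ± 4.59 CPM in brain. Clec4e, Clec4d and Clec7a, activating receptors for microbial glycolipids and beta-glucan, averaged 176 ± 68.2, 26.2 ± 11.7 and 569 ± 87.1 CPM in sciatic nerve; brain held no read of the first pair and 26.4 ± 6.03 CPM of Clec7a. The inhibitory side was mixed. Pirb and Lilrb4a were higher (log2 fold changes 4.55 ± 0.35 and 7.69 ± 0.32), while Sirpa, the receptor of the do-not-eat-me signal Cd47, fell to 552 ± 66.8 CPM in sciatic nerve, against 3000.4 ± 1008 CPM in brain, and Vsir, the checkpoint VISTA, to 347 ± 36.4 CPM in sciatic nerve, against 2583 ± 284 CPM in brain. Cd33 and Siglece were not called (log2 fold changes -0.28 ± 0.20 and -0.36 ± 0.20).

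**Figure D2:**
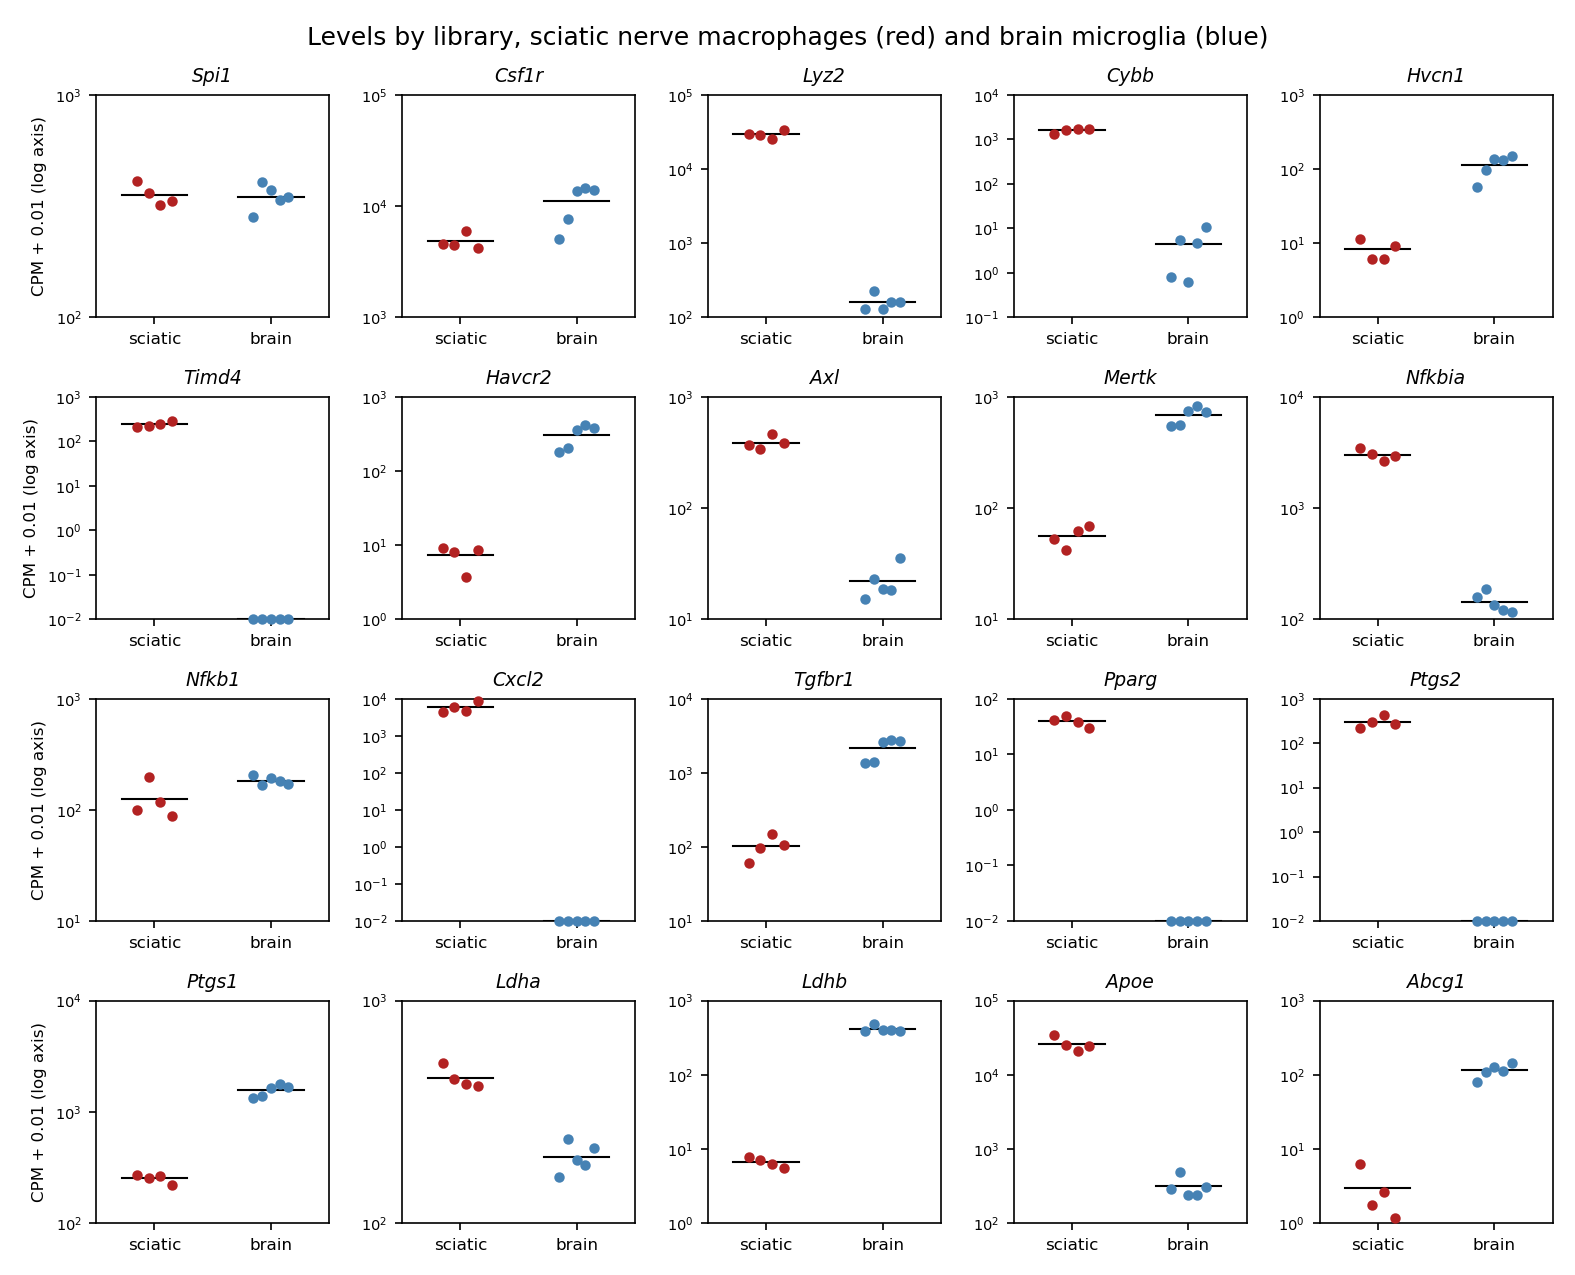
Level of 20 genes in each library as CPM plus 0.01 on a log axis, 1 panel per gene, with sciatic nerve macrophages (red, 4 libraries) left of brain microglia (blue, 5 libraries) and a bar at the mean of each group. The 2 groups are apart in every panel but those of Spi1, Csf1r and Nfkb1, and Timd4, Cxcl2, Pparg and Ptgs2 sit at the floor in brain.

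Genes of the NF-kB pathway leaned to the nerve. Of the 27 listed genes, all tested, 19 were higher in sciatic nerve (23.2% over all genes) and none was lower; 17 of the 19 differed by at least 2-fold. Without scaling beyond total counts 17 were higher and 4 lower. The genes that NF-kB induces to restrain itself were far up. Nfkbia stood at 3437, 3041, 2671 and 2941 CPM in sciatic nerve, against 159.9, 188, 135, 119.9 and 117 CPM in brain (log2 fold change 4.39 ± 0.18). Nfkbiz and Nfkbid, nuclear IkB proteins, averaged 1606 ± 46.6 and 771 ± 97.3 CPM in sciatic nerve against 5.29 ± 1.12 and 2.75 ± 1.02 CPM in brain. Tnfaip3, the deubiquitinase A20, averaged 796 ± 198 CPM in sciatic nerve against 48.2 ± 18.7 CPM in brain.

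The subunits of NF-kB themselves differed less. Rel, Relb, Nfkb2 and Rela were higher by log2 fold changes of 2.80 ± 0.21, 2.61 ± 0.20, 2.89 ± 0.27 and 1.16 ± 0.15. Nfkb1 was not called: it stood at 99.4, 198, 119 and 87.9 CPM in sciatic nerve, against 205, 169, 193, 180.3 and 173 CPM in brain (log2 fold change -0.55 ± 0.22). Its highest sciatic nerve value belonged to replicate 2, and without that library Nfkb1 was lower (log2 fold change -0.84, edgeR adjusted p = 0.00287). The kinase Chuk and the scaffold Ikbkg, which carry the signal from receptors, were not called either (log2 fold changes -0.04 ± 0.32 and -0.17 ± 0.26), and Ikbkb was higher by 0.75 ± 0.19. The chemokine targets followed the first group. Cxcl2 stood at 4526, 6079, 4665 and 8669 CPM in sciatic nerve with no read in any brain library, and Cxcl1 averaged 3396 ± 959 CPM with no brain read.

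A list of immediate early and dissociation response genes, which many cells switch on while tissue is being dissociated, moved with this: 20 of 21 were higher in sciatic nerve, with Rhob the exception, and their levels summed to 35800 to 41300 CPM in the sciatic nerve libraries and 1220 to 1530 CPM in the brain libraries. Fos averaged 3390.1 ± 363 CPM in sciatic nerve against 1.23 ± 1.02 CPM in brain, Dusp1 6559.5 ± 1132 CPM in sciatic nerve against 5.01 ± 4.59 CPM in brain. Heat shock genes were higher in 13 of 20 tested and lower in 1 (10 and 5 without scaling), with Hspa1a at 88.9 ± 19.2 CPM in sciatic nerve against 0.916 ± 0.759 CPM in brain. The part of the isolation in the NF-kB, feedback and chemokine differences was not tested.

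Feedback regulators of kinase and cytokine signalling were higher in 19 of 31 tested and lower in 8. The phosphatases that switch off MAP kinases lay on both sides. Dusp1, Dusp2 and Dusp5 were higher (log2 fold changes 10.39 ± 0.57, 8.39 ± 0.37 and 7.03 ± 0.26), whereas Dusp6 and Dusp7, cytoplasmic phosphatases selective for ERK, were lower (-3.25 ± 0.23 and -2.04 ± 0.23). Of the SOCS proteins, Socs3 and Cish were higher (log2 fold change 5.60 ± 0.25 and 5.90 ± 0.87) and Socs5 and Socs6 lower (-1.21 ± 0.35 and -1.26 ± 0.18). Of the regulators of G protein signalling, Rgs1 was higher (log2 fold change 3.19 ± 0.28) and Rgs2 and Rgs10 were lower (-1.54 ± 0.21 and -1.30 ± 0.22).

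Sensors of microbial products were called in both directions at shares near those of all genes. Of 27 genes of Toll-like receptor signalling, all tested, 7 were higher (25.9%, against 23.2% over all genes), 8 lower (29.6%, against 24.1%) and 12 not called. The counts were 6 and 10 without scaling and 10 and 9 without brain replicates 1 and 2. On the side of the nerve were Tlr2, which senses bacterial lipopeptides (2005 ± 437 CPM in sciatic nerve against 288 ± 79.7 CPM in brain), its co-receptor Cd14 (9113 ± 1084 CPM in sciatic nerve against 636 ± 95.6 CPM in brain) and the adaptor Myd88 (log2 fold change 1.95 ± 0.18). Tlr8 stood at 12.4, 27.2, 57.3 and 13.4 CPM in sciatic nerve with no read in any brain library. On the side of the brain, Tlr12 stood at 0.263, 0.0701, 0.365 and 0.0679 CPM in sciatic nerve, against 48.5, 59.1, 66.7, 69.4 and 85.4 CPM in brain (log2 fold change -8.39 ± 0.46). Tlr3, the sensor of double-stranded RNA, and Tlr13, the sensor of bacterial ribosomal RNA, were lower as well (log2 fold changes -3.26 ± 0.50 and -2.80 ± 0.34). Tlr4 was lower (log2 fold change -1.21 ± 0.45), with overlapping libraries, and this call was lost when any of 6 single libraries was left out. Of the signal chain and the other receptors, Irak1, Irak4, Traf6, Ticam1, Unc93b1, Tlr1, Tlr5 and Tlr9 were not called.

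TGF-beta signalling, which microglia need for their identity, leaned to the brain, with 8 of 32 tested genes higher in sciatic nerve and 15 lower. The type I receptor Tgfbr1 stood at 61.5, 95.5, 151 and 107 CPM in sciatic nerve, against 1359, 1414, 2595, 2817 and 2695 CPM in brain (log2 fold change -4.39 ± 0.30). The type II receptor Tgfbr2 was lower (log2 fold change -1.17 ± 0.28), with overlapping libraries. Of the signal carriers, Smad3 was lower (log2 fold change -2.68 ± 0.37) and Smad2 and Smad4 were not called (0.40 ± 0.30 and 0.17 ± 0.20). The inhibitor Smad7, which TGF-beta induces, stood at 1.51, 2.59, 1.31 and 5.9 CPM in sciatic nerve, against 57.1, 49.5, 44.1, 54.7 and 40.2 CPM in brain (log2 fold change -4.11 ± 0.39).

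The repressors Skil and Tgif1 and the extracellular target Tgfbi were higher in sciatic nerve (log2 fold changes 1.51 ± 0.23, 3.48 ± 0.24 and 4.24 ± 0.18). Tgfb1 itself was not called (log2 fold change -0.15 ± 0.16). On the BMP branch, the ligand Bmp2 stood at 299.5, 389, 458 and 499 CPM in sciatic nerve with no read in any brain library, while Smad1, Smad5 and the receptors Bmpr2 and Bmpr1a were lower (log2 fold changes -1.38 ± 0.20, -1.44 ± 0.32, -1.91 ± 0.24 and -2.43 ± 0.38). Bambi, a decoy receptor, was higher (log2 fold change 3.49 ± 0.59).

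Other growth factors were higher in 15 of 24 tested genes and lower in 4. The colony-stimulating factors Csf2 and Csf3 averaged 191 ± 28.7 and 17.2 ± 4.09 CPM in sciatic nerve with no brain read. Igf1, which supports myelin and neurons, averaged 219 ± 16.2 CPM in sciatic nerve against 0.406 ± 0.39 CPM in brain, and Hbegf 409 ± 79.5 CPM in sciatic nerve against 6.2 ± 2.1 CPM in brain. The ligands of the EGF receptor divided: Areg stood at 64.7, 76.3, 63.4 and 100.5 CPM in sciatic nerve with no read in brain, and Tgfa stood at 3.62, 0.14, 0.73 and 3.05 CPM in sciatic nerve, against 64, 103, 151, 156 and 166 CPM in brain (log2 fold change -6.07 ± 0.58). Fgf13, Pdgfb and Vegfb were the other factors that fell (log2 fold changes -7.08 ± 0.58, -1.77 ± 0.18 and -1.12 ± 0.26). Bdnf, Gdnf and Ntf3, neurotrophic factors of Schwann cells and neurons, held at most 3 reads in either tissue and were not tested.

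Transcription factors differed in both directions, often within a family. Of 34 tested bZIP and nuclear receptor factors 21 were higher and 6 lower, and of 37 tested factors of the Mef2, Smad, Runx, Ets and Id families 8 were higher and 19 lower. Pparg, the lipid-sensing receptor of alveolar macrophages and fat cells, stood at 41.6, 48.6, 38.1 and 29.5 CPM in sciatic nerve with no read in any brain library. Id3, an inhibitor of bHLH factors needed by Kupffer cells, averaged 107 ± 14 CPM in sciatic nerve against 0.00935 ± 0.0209 CPM in brain, where 1 read was found. Spic, the haem-induced factor of red pulp macrophages, averaged 46.2 ± 12.9 CPM in sciatic nerve against 0.0836 ± 0.187 CPM in brain, and Ahr, the aryl hydrocarbon receptor, 41.6 ± 20.3 CPM in sciatic nerve against 0.14 ± 0.188 CPM in brain.

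Irf7 and Irf8 lay on opposite sides. Irf7, which drives interferon genes, stood at 96.9, 72.6, 118 and 108 CPM in sciatic nerve, against 6.78, 3.54, 6.17, 3.92 and 8.61 CPM in brain (log2 fold change 4.10 ± 0.27). Irf8, which microglia need for development, stood at 259, 227, 229 and 223 CPM in sciatic nerve, against 643, 776, 744, 693 and 672 CPM in brain (log2 fold change -1.59 ± 0.13). Irf3 and Irf9 were not called. Klf2, Klf4, Klf6, Klf9, Klf10 and Klf11 were higher and Klf3 and Klf12 lower, of 12 KLF genes tested. The same held for the clock repressors Bhlhe40, which was higher (log2 fold change 5.02 ± 0.90), and Bhlhe41, which was lower (-3.49 ± 0.36).

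Mef2a and Mef2c, which bind many microglial enhancers, were lower in sciatic nerve (log2 fold changes -1.28 ± 0.18 and -0.58 ± 0.18), and Mef2d was not called. Hhex, Ets1, Zeb1 and Ikzf1 were further microglial factors that fell (log2 fold changes -3.31 ± 0.18, -2.73 ± 0.37, -2.89 ± 0.52 and -1.89 ± 0.23). Maf, a factor of mature macrophages, was not called (log2 fold change -0.79 ± 0.37). Of 39 Hox genes, which mark position along the body axis, none passed the filter; their levels summed to 0.988 to 4.21 CPM in the sciatic nerve libraries and 0.152 to 5.83 CPM in the brain libraries.

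The listed G protein-coupled receptors were divided evenly, with 26 of 56 tested genes higher, 26 lower and 4 not called. The called share was 92.9%, against 47.3% of all genes. These receptors were listed with earlier results of these data known, so that share describes the list and not such receptors at large. Receptors that were higher include Ptger2 and Ptger4 for prostaglandin E2, Fpr1 and Fpr2 for formylated peptides, C5ar1 and C3ar1 for complement fragments, Hrh1 for histamine, Ccr1 and Ccr2 for monocyte chemokines, and Gpr65 and Gpr132, which are proton and lipid sensors. Ednrb, the endothelin receptor B, stood at 725, 727, 816 and 723 CPM in sciatic nerve, against 0.867, 0.578, 3.23, 1.71 and 3.13 CPM in brain (log2 fold change 8.60 ± 0.40). C5ar1 averaged 3337 ± 195 CPM in sciatic nerve against 225 ± 25.9 CPM in brain.

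Receptors that were lower include those for nucleotides, adenosine, lipids and fractalkine. P2ry12 stood at 138, 129, 143 and 161 CPM in sciatic nerve, against 5049, 5983, 10323, 10430 and 10476 CPM in brain (log2 fold change -5.89 ± 0.24). Adora3, the adenosine A3 receptor, stood at 0.593, 0.21, 0 and 0.0679 CPM in sciatic nerve, against 122, 121, 97.2, 106 and 107 CPM in brain (log2 fold change -8.91 ± 0.56), while Adora2b, which is also an adenosine receptor, averaged 23.4 ± 6.59 CPM in sciatic nerve with no brain read. The adrenergic receptor Adrb1 was lower (log2 fold change -2.87 ± 0.40), as were Cnr2, the peripheral cannabinoid receptor (-2.92 ± 0.68), and Lpar5 and Lpar6 for lysophosphatidic acid (-4.50 ± 0.47 and -1.45 ± 0.24); Lpar1, for the same ligand, was higher, at 25.9 ± 7.49 CPM in sciatic nerve against 0.0187 ± 0.0418 CPM in brain. P2ry6, which senses UDP in phagocytosis, was lower by less (log2 fold change -0.68 ± 0.17). Receptors of 1 ligand class could lie on opposite sides: prostaglandin E2 (Ptger2 and Ptger4 against Ptger3), histamine (Hrh1 against Hrh2), complement C5a (C5ar1 against C5ar2), adenosine and nucleotides.

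Of 34 tested cytokine receptors 9 were higher and 13 lower, and 7 and 16 without scaling. Il2rg, the common gamma chain, Il4ra and the thymic stromal lymphopoietin receptor Crlf2 were higher (log2 fold change 3.89 ± 0.49, 0.81 ± 0.21 and 1.05 ± 0.28), and so was Il1rl1, the receptor of interleukin 33 (2.30 ± 0.38). Ifngr1, Il21r, Csf3r, Il6ra and Il6st were lower (log2 fold changes -1.86 ± 0.19, -2.12 ± 0.20, -2.97 ± 0.35, -1.30 ± 0.34 and -1.70 ± 0.35). The type I interferon receptor chains Ifnar1 and Ifnar2 and the interleukin 10 receptor chain Il10rb were not called.

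Antigen presentation was higher also on the class I side, where 12 of 20 tested genes were higher and none was lower; 8 were higher and 3 lower without scaling, and 13 and 4 without brain replicates 1 and 2. The class I heavy chain H2-D1 averaged 4453 ± 917 CPM in sciatic nerve against 575 ± 116 CPM in brain, H2-K1 1552 ± 342 CPM in sciatic nerve against 434 ± 43.7 CPM in brain, and their light chain B2m 3319.7 ± 659 CPM in sciatic nerve against 2198 ± 149 CPM in brain. Class I genes are near-identical copies of each other, so their single values are uncertain. The loading proteins Tap2, Tapbp and Erap1 were not called, and Tap1 was higher by a log2 fold change of 1.10 ± 0.27. Of the class II genes, the classical pair H2-Aa and H2-Ab1 were higher (log2 fold change 12.74 ± 0.81 and 10.27 ± 0.26) and the non-classical pair H2-Oa and H2-Ob, which restrain peptide loading, were lower (-4.95 ± 0.45 and -1.25 ± 0.19). Of the costimulatory molecules, Cd40 and Cd83 were higher (log2 fold change 10.26 ± 0.69 and 5.71 ± 0.15), Cd80 and Cd86 were not called (0.65 ± 0.29 and 0.47 ± 0.21), and Lag3 and Havcr2 were lower.

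All 9 tested genes of the Ms4a family, 4-pass membrane proteins clustered on 1 chromosome, were higher; Ms4a7 averaged 598 ± 96.7 CPM in sciatic nerve against 0.545 ± 1.06 CPM in brain, and Ms4a4a 355 ± 65.5 CPM in sciatic nerve against 0.291 ± 0.269 CPM in brain. The median log2 fold change of the family was 8.08, and 6.06 with the 3 genes absent from brain at their lower bound. S100 proteins, annexins and galectins, which bind calcium, membranes and sugars, were higher in 16 of 20 tested genes and lower in 2. Anxa1, an anti-inflammatory annexin that glucocorticoids induce, stood at 494, 420.3, 411 and 526 CPM in sciatic nerve, against 0, 0.0722, 0.14, 0 and 0 CPM in brain (log2 fold change 13.14 ± 0.69). Anxa5, Lgals1 and Lgals3 averaged 1978 ± 223, 782 ± 104 and 261 ± 76.5 CPM in sciatic nerve against 31 ± 11.9, 2.38 ± 2.52 and 3.95 ± 1.93 CPM in brain. Anxa3 and Lgals9 were the genes that fell (log2 fold changes -1.25 ± 0.13 and -0.51 ± 0.16), and the call of Lgals9 was lost when any of 6 single libraries was left out.

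**Figure D3:**
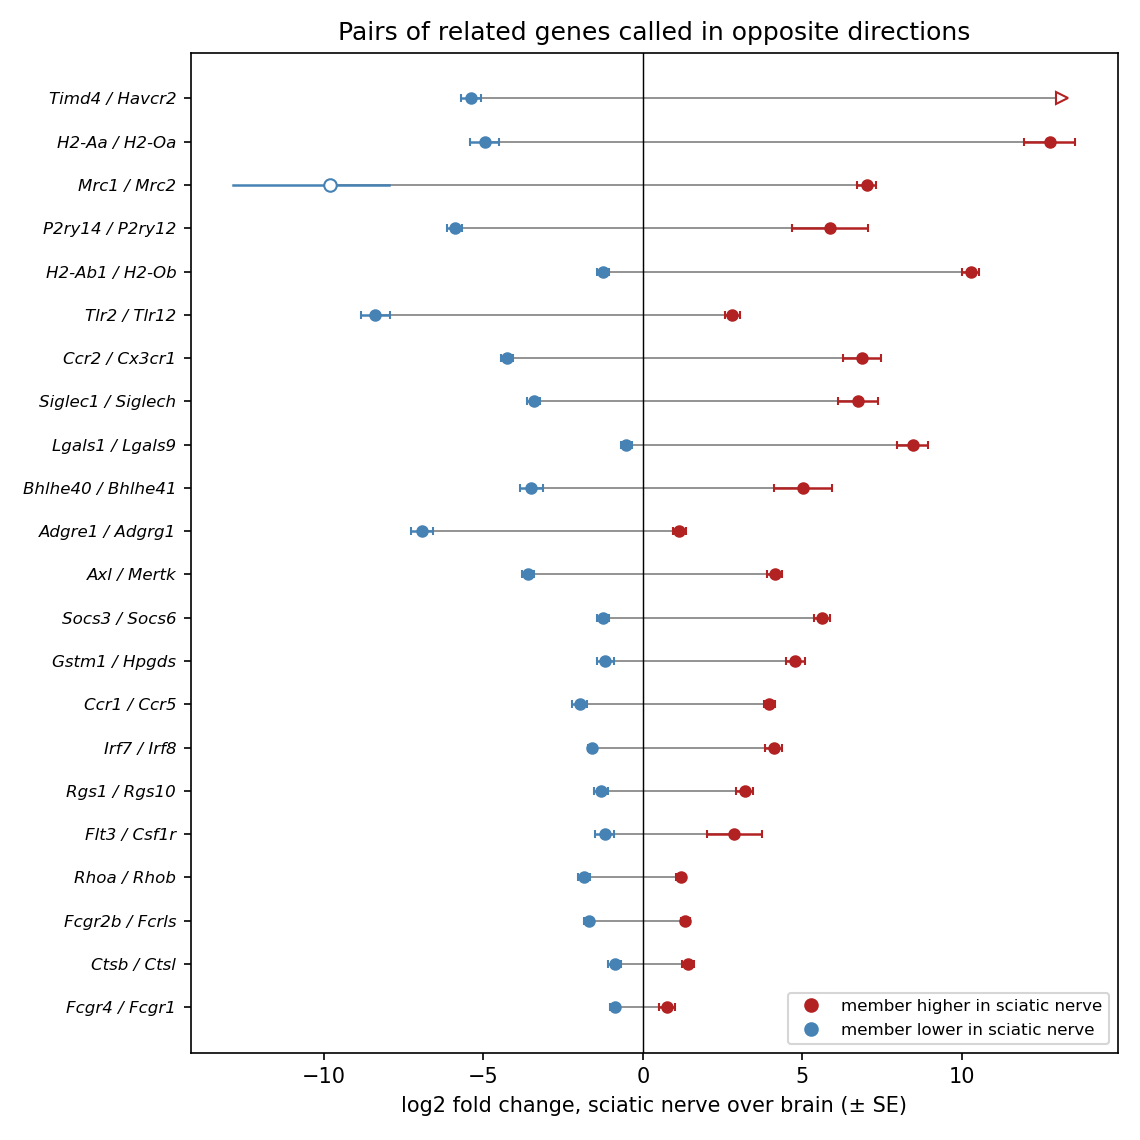
Log2 fold change, sciatic nerve over brain, for the 22 of 60 listed pairs of related genes in which 1 member was called higher (red) and the other lower (blue); each line joins a pair, whiskers are standard errors, the open triangle is the lower bound of Timd4, which had no brain read, and the open circle is the ratio of the levels of Mrc2, which had 2 sciatic nerve reads, with the exact 95% interval of its counting error. The pairs range from Timd4 and Havcr2, with members far on both sides, to Fcgr4 and Fcgr1, with both members within 1 of 0.

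Of 60 pairs of related genes listed, 58 had both members tested, and in 22 of them 1 member was higher and the other lower. These pairs were chosen with earlier results of these data known, so the number describes the list and not related genes at large. Besides those named above, they include the chemokine receptors Ccr2 and Cx3cr1, the sialic acid receptors Siglec1 and Siglech, the adhesion receptors Adgre1 and Adgrg1, the Fc receptors Fcgr2b and Fcrls, and the growth factor receptors Flt3 and Csf1r. Some of these calls rest on single libraries: Flt3 was no longer called without sciatic nerve replicate 3 or 4 (edgeR adjusted p up to 0.0699), nor Fcgr4 without sciatic nerve replicate 1 or brain replicate 3 (up to 0.0947).

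Of 47 tested lysosomal genes 11 were higher, 16 lower and 20 not called; the counts were 8 higher and 24 lower without scaling, and 13 and 22 without brain replicates 1 and 2. Ctsd, an aspartic protease, stood at 1043, 782, 778 and 1004 CPM in sciatic nerve, against 8643, 10665, 12153, 11478 and 12355 CPM in brain (log2 fold change -3.62 ± 0.17). Ctss, Lgmn and Ctsz fell by less (log2 fold changes -1.53 ± 0.16, -1.44 ± 0.14 and -1.04 ± 0.14). Ctsb and Ctsc, cysteine proteases, were higher, at 10750 ± 733 and 7844 ± 789.5 CPM in sciatic nerve against 4039.8 ± 809 and 1129 ± 378 CPM in brain, and Plbd1 and Gla were higher from low brain levels (log2 fold changes 10.10 ± 0.82 and 3.92 ± 0.38). The membrane proteins Lamp1 and Lamp2, the saposin precursor Psap and Grn were not called. The proton pump acidifies the organelle, and 12 of 20 tested V-ATPase genes were higher, among them the catalytic subunit Atp6v1a (log2 fold change 2.23 ± 0.16), while 2 were lower, Atp6v0a2 and Atp6v1c2; without scaling 7 were higher and 2 lower.

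Lipid handling differed at intake, synthesis and export. Apoe, the carrier of lipids between cells, stood at 34353, 25513, 20696 and 24626 CPM in sciatic nerve, against 286, 487, 237, 241 and 305 CPM in brain (log2 fold change 6.40 ± 0.24). The exporters that load it went the other way: Abcg1 stood at 6.19, 1.75, 2.63 and 1.15 CPM in sciatic nerve, against 79.4, 110.1, 126, 112 and 145 CPM in brain (log2 fold change -5.28 ± 0.40), and Abca1 was lower (-1.21 ± 0.17). Pltp, the phospholipid transfer protein, and Lpl, lipoprotein lipase, averaged 2067 ± 372 and 502 ± 148 CPM in sciatic nerve against 0.997 ± 0.681 and 48.3 ± 12.3 CPM in brain. Plin2, which coats lipid droplets, averaged 564 ± 121 CPM in sciatic nerve against 46.7 ± 5.09 CPM in brain.

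Genes of sterol and fatty acid synthesis were higher in 17 of 34 tested and lower in 4. On the sterol branch, Sqle, Insig1, Cyp51 and Srebf2 had log2 fold changes of 4.54 ± 0.54, 4.51 ± 0.25, 3.12 ± 0.23 and 2.90 ± 0.26. In the fatty acid branch Srebf1 was lower (log2 fold change -1.31 ± 0.22), Acaca, Acly and Fasn were not called, and the desaturases differed, with Scd2 lower (-4.20 ± 0.38) and Scd1 higher, at 2.75 ± 1.06 CPM in sciatic nerve against 0.0306 ± 0.0327 CPM in brain. Scap, which escorts the SREBP factors, was lower (log2 fold change -2.05 ± 0.20). Lpcat2 and Lpcat3, which remodel phospholipids, fell to 154 ± 10.3 and 34.6 ± 7.1 CPM in sciatic nerve, against 2252 ± 669 and 287 ± 103 CPM in brain.

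At the cyclooxygenase step of eicosanoid synthesis, the inducible and constitutive forms differed in opposite directions, and the sciatic nerve libraries held both. Ptgs2, the inducible form, stood at 222, 302, 425 and 274 CPM in sciatic nerve with no read in any brain library. Ptgs1, the constitutive form, stood at 270.4, 251, 263 and 219 CPM in sciatic nerve, against 1340.5, 1381, 1642, 1786 and 1668 CPM in brain (log2 fold change -2.64 ± 0.14). The groups did not overlap for either enzyme. Downstream, the prostaglandin D2 synthase Hpgds and the leukotriene C4 synthase Ltc4s were lower (log2 fold change -1.18 ± 0.27 and -1.91 ± 0.28), the thromboxane synthase Tbxas1 was not called, and Alox5, which starts the leukotrienes, was higher (3.09 ± 0.28). Pla2g7, which degrades platelet-activating factor, and Ch25h, which makes 25-hydroxycholesterol, averaged 888 ± 124 and 212 ± 14.1 CPM in sciatic nerve against 2.45 ± 1.37 and 1.25 ± 0.959 CPM in brain. Arg1 stood under 1 CPM in both tissues.

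Some steps of sugar metabolism had forms on opposite sides. Of 35 tested genes of glycolysis and the pentose phosphate path, 10 were higher (28.6%), 8 lower (22.9%) and 17 not called, which is near the shares over all genes. Without scaling 5 were higher and 10 lower. Slc2a5, the fructose transporter, stood at 1.12, 0.491, 0.949 and 0.271 CPM in sciatic nerve, against 817, 995, 1416, 1383 and 1229 CPM in brain (log2 fold change -10.68 ± 0.35). Ldhb, the heart form of lactate dehydrogenase, stood at 7.84, 7.15, 6.2 and 5.56 CPM in sciatic nerve, against 392, 479, 397, 400.3 and 394 CPM in brain (log2 fold change -5.94 ± 0.15). Ldha, the muscle form, stood at 521, 443, 422 and 412 CPM in sciatic nerve, against 162, 238, 193, 183 and 218 CPM in brain (log2 fold change 1.18 ± 0.15). The libraries were apart for all 3 genes.

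Phosphofructokinase, a rate-setting step, also had forms on opposite sides, with Pfkp higher (log2 fold change 4.92 ± 0.86) and Pfkl lower (-1.62 ± 0.24). Hexokinase 1 was higher and hexokinase 2 lower (Hk1 log2 fold change 0.61 ± 0.21, Hk2 -1.75 ± 0.28), and Hk3 was not called; the call of Hk1 was lost when any of 4 single libraries was left out (edgeR adjusted p up to 0.0945). The core steps Aldoa, Eno1, Pkm, Pgd and Taldo1 were not called. Gapdh, Pgk1 and Pgam1 stood at low CPM, as did many ribosomal protein genes; such genes have near-identical processed pseudogenes, and their single values are uncertain.

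Nuclear genes of oxidative phosphorylation were higher in 31 of 74 tested and lower in none, but by little: 3 of the 31 differed by 2-fold or more, and the median log2 fold change was 0.46. With no scaling beyond total counts, which moves the median of all genes by -0.444, 2 were called higher, 1 lower, and the median was 0.0. Of cytosolic ribosomal proteins 12 of 76 were higher and none lower, and of proteasome genes 12 of 38 were higher and 1 lower. The shares higher were 41.9% for oxidative phosphorylation, 15.8% for ribosomal proteins and 31.6% for the proteasome, against 23.2% over all genes. Without scaling, 4 ribosomal genes were higher and 1 lower, and 3 proteasome genes were higher and 4 lower. Without brain replicates 1 and 2, 60 genes of oxidative phosphorylation, 50 ribosomal and 19 proteasomal genes were higher, and without sciatic nerve replicate 4, 16 of oxidative phosphorylation. The counts of these 3 lists thus moved with the scaling and with brain replicates 1 and 2, and that of oxidative phosphorylation also with sciatic nerve replicate 4. The 8 tested mitochondrially encoded genes held 1 call, mt-Nd3, with no read in sciatic nerve; without brain replicates 1 and 2, 5 were higher and 1 lower.

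Antioxidant genes did not depend on it in that way: 20 of 30 tested were higher and 2 lower, and 15 and 3 without scaling. The metallothioneins Mt1 and Mt2 averaged 1708 ± 332 and 198 ± 52.9 CPM in sciatic nerve against 53.7 ± 19 and 0.593 ± 0.505 CPM in brain, and Hmox1, the haem oxygenase, 1176 ± 423 CPM in sciatic nerve against 30.7 ± 10.4 CPM in brain. Gpx1, Prdx1, Sod2 and Txnrd1 were higher (log2 fold changes 2.13 ± 0.20, 2.31 ± 0.15, 3.36 ± 0.15 and 2.55 ± 0.20). Gclc, the catalytic subunit of the first enzyme of glutathione synthesis, and Keap1, the repressor of Nrf2, were lower (log2 fold changes -1.42 ± 0.25 and -0.78 ± 0.22).

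Genes of cell division were higher in 29 of 37 tested and lower in none, and without scaling 27 were higher and 2 lower. The list summed to 2090 to 2410 CPM in the sciatic nerve libraries and 481 to 546 CPM in the brain libraries. Levels were low for some members, such as Mki67 and Top2a. Mki67 stood at 6.65, 14.1, 18.6 and 16.5 CPM in sciatic nerve, against 0.552, 0.0361, 0, 0 and 0.543 CPM in brain (log2 fold change 6.02 ± 0.95). Top2a averaged 20 ± 6.49 CPM in sciatic nerve against 1.06 ± 1.17 CPM in brain. Ccnd2, a cyclin of the first gap phase, stood at 212, 283, 276 and 216 CPM in sciatic nerve, against 0.315, 0.0722, 0, 0 and 0.167 CPM in brain (log2 fold change 11.30 ± 0.63). The cell cycle inhibitor Cdkn1a was higher too, at 977 ± 141 CPM in sciatic nerve against 11.7 ± 3.67 CPM in brain, and the cyclin genes Ccnd3 and Ccne2 were not called.

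**Figure D4:**
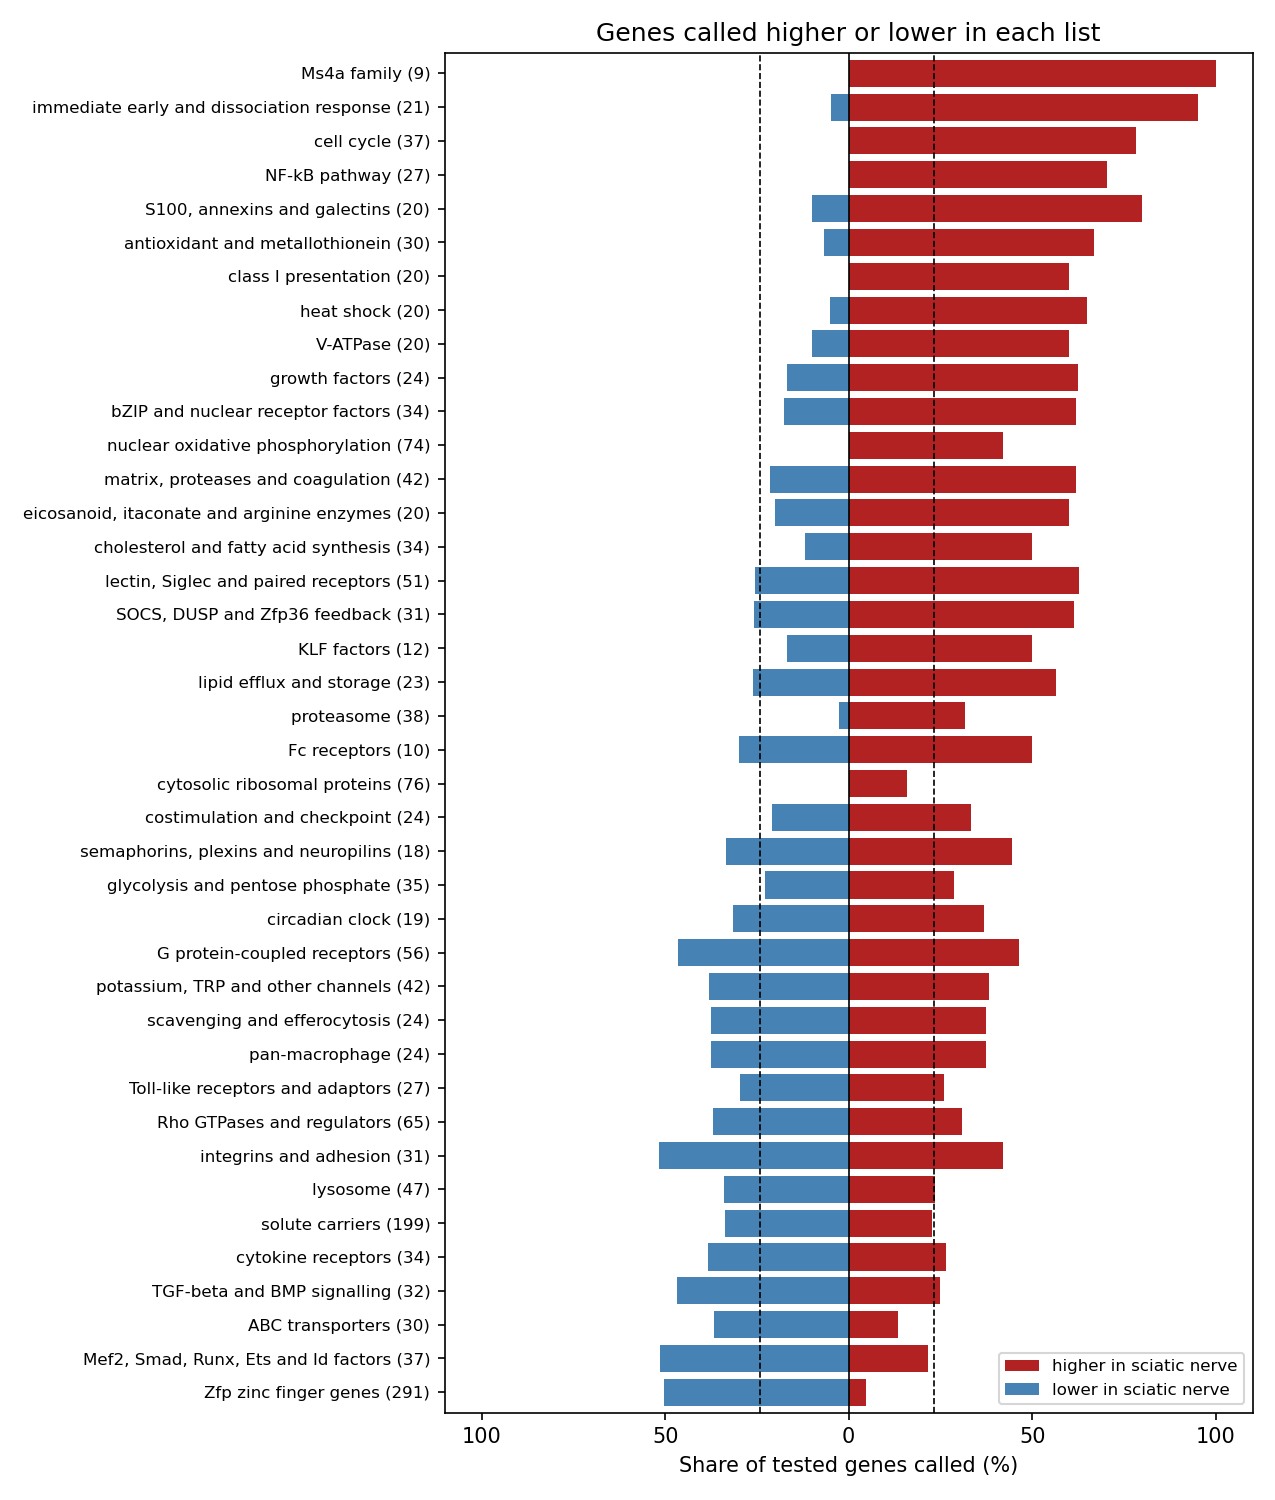
Share of the tested genes of each of 40 lists that were called higher in sciatic nerve (red, to the right) or lower (blue, to the left), in percent, with the number tested in brackets (lists of cell type markers and lists with under 9 tested genes are not drawn); dashed lines mark 23.2 and 24.1%, the shares over all 12630 genes. Cell cycle, Ms4a, NF-kB and S100 genes lean to the right, Zfp zinc finger genes to the left, and G protein-coupled receptors reach far to both sides.

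Matrix proteins, proteases and coagulation factors were higher in 26 of 42 tested genes and lower in 9. Mmp9, a gelatinase, stood at 592, 548, 573 and 493 CPM in sciatic nerve, against 0.0788, 0.0361, 0, 0 and 0 CPM in brain, where 2 reads were found in all. Mmp13 averaged 236 ± 70.3 CPM in sciatic nerve with no brain read, and Ecm1 362 ± 74.2 CPM in sciatic nerve against 0.955 ± 1.08 CPM in brain. Mmp2 and Mmp14, the gelatinase and the membrane protease that activates it, were lower (log2 fold changes -4.91 ± 0.61 and -1.54 ± 0.27). The serpins divided. Serpinb6a and Serpinb8 were higher (5.65 ± 0.24 and 12.75 ± 0.71), and Serpine2, an inhibitor of thrombin and plasminogen activators, stood at 2.17, 1.19, 3.87 and 7.53 CPM in sciatic nerve, against 809.5, 1086, 1362, 1362 and 1348 CPM in brain (log2 fold change -8.33 ± 0.41). Plau and its receptor Plaur, which Serpine2 opposes, were higher (log2 fold changes 2.78 ± 0.28 and 4.93 ± 0.25). Cst3, the most abundant brain transcript per kilobase, fell to 6463 ± 823 CPM in sciatic nerve, against 37783 ± 9914 CPM in brain.

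Adhesion molecules lay on both sides, with 13 of 31 tested higher and 16 lower. Itga4, Itga5 and Itgb7, which bind Vcam1 and fibronectin, were higher (log2 fold change 5.28 ± 0.53, 4.04 ± 0.35 and 5.39 ± 1.11), and Itgam, Itga6 and Itgb5 lower (-2.09 ± 0.32, -2.65 ± 0.25 and -3.13 ± 0.24). Itgb1 and Itgb2, which pair with many of these, were not called (log2 fold changes 0.40 ± 0.31 and -0.37 ± 0.28). Selplg, the ligand of P-selectin, and F11r, a junctional molecule, fell to 233 ± 45.7 and 24 ± 5.93 CPM in sciatic nerve, against 5703 ± 1068 and 1526 ± 313 CPM in brain. Cd34 and Pecam1, better known from vessels, were lower too (log2 fold changes -7.24 ± 0.29 and -7.36 ± 0.78). Cd44, Cd93 and Lyve1 were higher (log2 fold changes 6.74 ± 0.79, 10.76 ± 0.72 and 9.99 ± 0.88).

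Among axon guidance molecules, 8 of 18 tested semaphorins, plexins and neuropilins were higher and 6 lower, and 7 and 7 without scaling. Within the class 4 semaphorins, Sema4a was higher (log2 fold change 5.71 ± 0.30) and Sema4b, Sema4c and Sema4d were lower (-3.01 ± 0.47, -2.08 ± 0.49 and -3.43 ± 0.27), as was Sema4g, with 3 reads in sciatic nerve. Plxnb2, a receptor of class 4 semaphorins, was lower as well (log2 fold change -2.27 ± 0.30), and Nrp1 was higher (1.16 ± 0.14).

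Ion channels lay on both sides, with 16 of 42 tested genes higher and 16 lower, against 11 and 20 without scaling. Kcnd1, a voltage-gated potassium channel, stood at 0.0658, 0.14, 0.073 and 0.136 CPM in sciatic nerve, against 76.7, 48.5, 77.7, 84.5 and 74 CPM in brain (log2 fold change -9.36 ± 0.44). Kcnk13, the channel THIK-1 that sets the resting potential of microglia, was lower (log2 fold change -1.04 ± 0.22), and so was Kcnk6 of the same class (-2.87 ± 0.25). Kcna3 and Kcnn4, the potassium channels of activated lymphocytes and macrophages, were higher (log2 fold changes 4.13 ± 0.59 and 1.61 ± 0.45). Orai1 and Orai2, store-operated calcium channels, were lower (log2 fold changes -1.70 ± 0.15 and -2.26 ± 0.36), and Orai3 was not called. Trpv4, which senses stretch and warmth, was higher (log2 fold change 4.20 ± 0.38), and Trpm2 was lower (-4.02 ± 0.69). P2rx4 was higher and P2rx7 and P2rx1 lower (log2 fold changes 1.64 ± 0.12, -0.67 ± 0.24 and -5.31 ± 0.35), and the call of P2rx7 was lost when any of 7 single libraries was left out.

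Of 199 tested solute carriers 45 were higher and 67 lower, shares of 22.6% and 33.7%; without scaling 33 were higher and 88 lower. Slc1a3, a glutamate transporter, fell to 0.808 ± 0.69 CPM in sciatic nerve, against 214 ± 24.3 CPM in brain, and Slco4a1, an organic anion transporter, to 0.0175 ± 0.035 CPM in sciatic nerve, against 59.8 ± 22.2 CPM in brain. Slc15a2, a peptide transporter, and Slc1a5, which takes up glutamine, were higher (log2 fold changes 6.37 ± 0.74 and 4.89 ± 0.26). Of 30 tested ABC transporters 4 were higher and 11 lower.

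Zinc finger genes named Zfp formed the largest list that leaned to 1 side: 14 of 291 tested were higher (4.81%) and 146 were lower (50.2%), with a median log2 fold change of -1.56. Zfp36, which binds messenger RNA and is no transcription factor, was the largest rise among the 14 (log2 fold change 6.01 ± 0.16). Zfp69 averaged 0.922 ± 0.6 CPM in sciatic nerve against 62.1 ± 46.4 CPM in brain, and Zfp532 0.615 ± 1.04 CPM in sciatic nerve against 25.7 ± 10 CPM in brain. Without scaling 7 were higher and 196 lower, and without brain replicates 1 and 2 the numbers were 17 and 157. Annotated transcripts that await experimental confirmation of their structure, and those inside introns of other genes, leaned the same way: 9 of 327 of the first class were higher and 103 lower, and 1 and 12 of 38 of the second.

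Circadian clock genes were mixed, with 7 of 19 tested higher and 6 lower, and 6 and 8 without scaling. Arntl, the gene of BMAL1, and its target Nr1d1 were higher (log2 fold change 1.89 ± 0.28 and 1.79 ± 0.62), as was Per1 (3.07 ± 0.44); Per3, Cry2, Tef and Hlf were lower (log2 fold changes -2.19 ± 0.74, -1.28 ± 0.47, -1.94 ± 0.39 and -4.55 ± 0.97), and Clock and Cry1 were not called. The calls of Nr1d1, Per3 and Cry2 were each lost when any of 6 single libraries was left out. The time of day of collection is not given in the sources used here.

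Markers of other cells were read list by list. Fibroblast markers were tested for 9 of 16 genes, of which 7 were higher in sciatic nerve; the list summed to 361 to 586 CPM in the sciatic nerve libraries and 93.4 to 133 CPM in the brain libraries, most of it from Gsn and Serpinf1, and the collagen genes Col1a1 and Col3a1 averaged 4.28 ± 4.56 and 10.9 ± 8.87 CPM in sciatic nerve. The Schwann cell list summed to 1880 to 2260 CPM in the sciatic nerve libraries and 492 to 910 CPM in the brain libraries, most of it from Pmp22 and Egr2, which other cells also make; 5 of its 9 tested genes were higher and 1 lower. Of its untested genes, Sox10, which defines these cells, had no read in sciatic nerve and 9 in brain, whereas Prx had 54 reads in sciatic nerve and none in brain, and Mal had 115 in sciatic nerve and 1 in brain. Mast cell markers summed to 2.31 to 12.1 CPM in the sciatic nerve libraries and 0 to 0.0788 CPM in the brain libraries, with the highest sum in sciatic nerve replicate 4. Neuron markers summed to 0.561 to 5.9 CPM in the sciatic nerve libraries and 3.6 to 42.6 CPM in the brain libraries, with the highest sum in brain replicate 1. The lymphoid list summed to 721 to 874 CPM in the sciatic nerve libraries and 493 to 611 CPM in the brain libraries. Of its 4 tested genes, 2 were higher and 2 lower. Among its untested genes, Ms4a1 had 56 reads in sciatic nerve and none in brain. T cell genes (Cd3e, Cd3d, Cd3g, Trac) and the globin genes held at most 2 reads in either tissue. The neutrophil list summed to 495 to 593 CPM in the sciatic nerve libraries and 0.0361 to 0.608 CPM in the brain libraries, nearly all of it from Mmp9; its tested genes, Mmp9 and Retnlg, were both higher, and S100a8 and Ly6g had no read in either tissue. Of the monocyte list 4 of 5 tested genes were higher and none lower. It summed to 7.81 to 19.9 CPM in the brain libraries. Sums in the sciatic nerve libraries were 1290 to 1650 CPM, most of it from Nr4a1, at a mean of 999.8 CPM. The receptor Ccr2, also of this list, averaged 464 ± 72.5 CPM in sciatic nerve against 4.1 ± 3.83 CPM in brain. Ly6c2, which marks classical monocytes, held 4 reads over the sciatic nerve and 3 over the brain libraries. Of the dendritic cell list 6 of 9 tested genes were higher and 3 lower, with sums of 415 to 504 CPM in the sciatic nerve libraries and 296 to 464 CPM in the brain libraries. Most of the sciatic nerve sum came from the lectin Cd209a, at a mean of 363 CPM. The untested Dpp4 and Ccr7 had 166 and 78 reads in sciatic nerve and none in brain, whereas Clec9a had 5 and 22. Dpp4 was highest in sciatic nerve replicate 4 (8.21 CPM) and Ccr7 in replicate 2 (3.99 CPM). The part of these cells in the class II, lectin, matrix and growth factor differences was not tested.

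**Figure D5:**
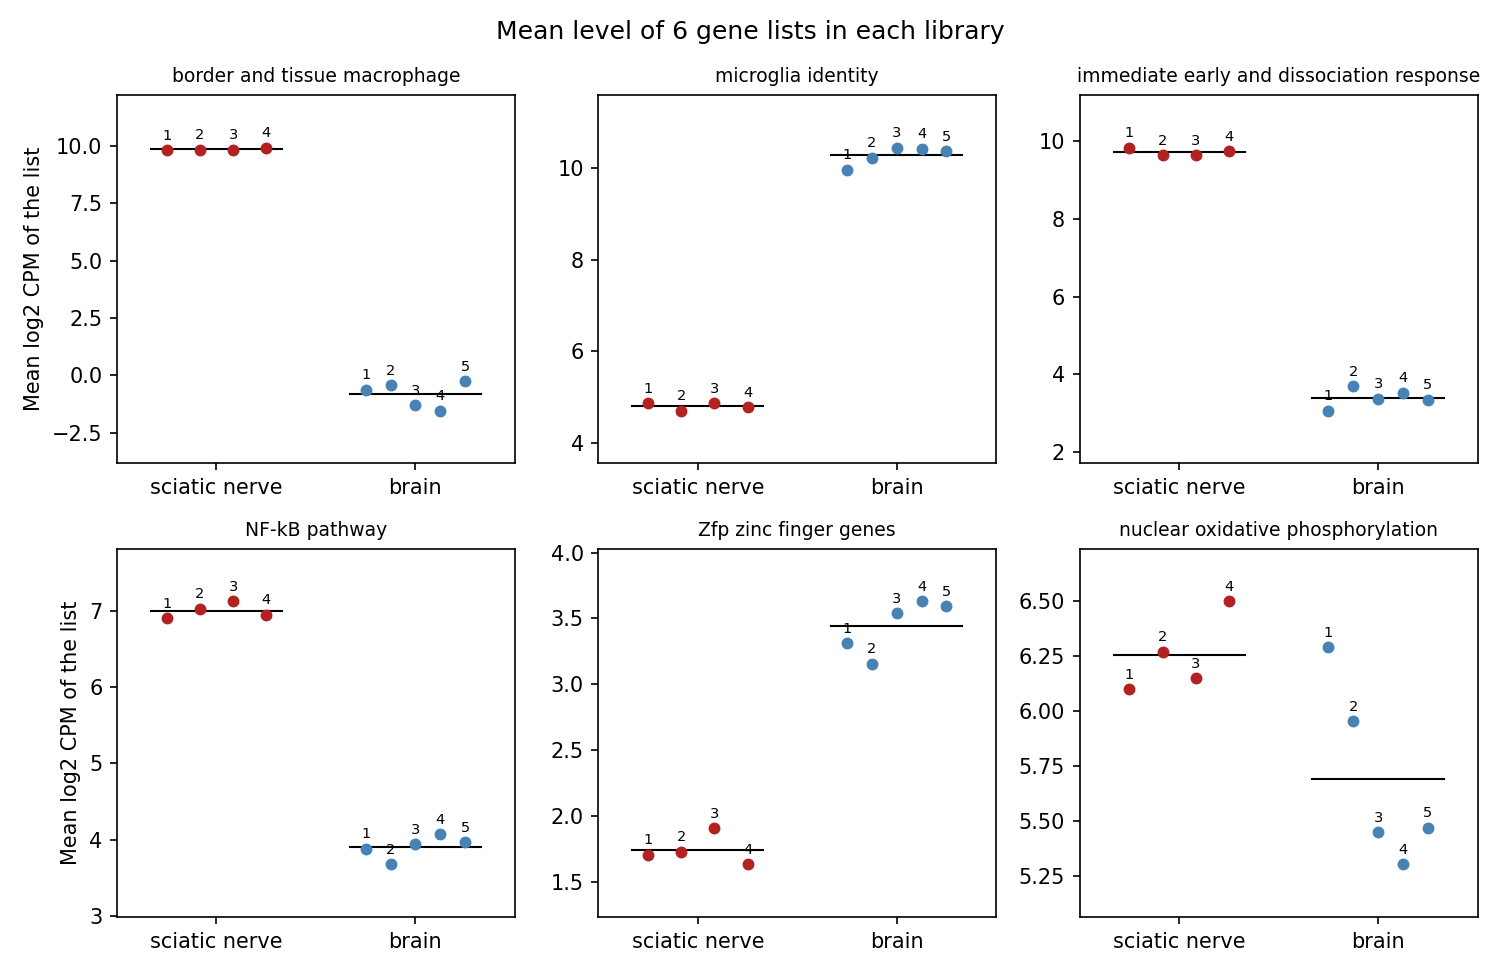
Mean log2 CPM of the tested genes of 6 lists in each library, 1 panel per list, with sciatic nerve macrophages (red, 4 libraries) left of brain microglia (blue, 5 libraries) and replicate numbers beside the points. The groups are apart in every panel but that of nuclear oxidative phosphorylation, where brain replicate 1 lies above 3 of the 4 sciatic nerve libraries, and brain replicate 1 lies lowest of the brain libraries for the microglia list.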

How the data were processed

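Total RNA of macrophages was sequenced; the tables hold whole-number counts per gene symbol, raw as deposited. Per the submitters' processing notes, the authors used STAR, featureCounts 1.5.1 and the mouse build mm10; the settings for strand and for reads with several matches do not stand in the sources used here. Of the deposited columns, 4 of optic nerve macrophages were not used. Brain columns carry a prefix that no label explains; they were taken as brain because the other prefixes name the other tissues, and their markers were checked.

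Genes were kept by the filterByExpr rule of edgeR 4.0.16 (R 4.3.3), scaled by TMM, and tested with its quasi-likelihood test, with Benjamini-Hochberg adjustment over the 12630 genes. A gene with 3 reads or fewer in a tissue has no standard error; a fold against no read is a bound at a floor of 3 counts over the group. Intervals of the fold change use the standard error of the fit and so include the spread between libraries. Exact intervals of ratios and the floors cover counting error only. Level per kilobase divides CPM by the merged exon length of the gene. Alternatives were other scalings and filters, DESeq2 1.42.0, limma 3.58.1 voom, each library left out, brain replicates 1 and 2 left out together, and the replicate number as a block. The test was also run on simulated counts, with far fewer changed genes than were called here and the same dispersion for every gene. That run therefore cannot check the scaling or the calls in these data. Members and lists were chosen with earlier results of these data known. Named genes are list or pair members, the 15 largest changes in each direction among called genes of at least 100 CPM in the higher tissue, the 10 smallest adjusted p-values in each direction, and the 10 genes of at least 100 CPM in both tissues with the interval closest around 0. Some genes are not reported here.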

Additional observations from a re-analysis of the deposited data

Results flagged for a closer look

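Within each tissue, the highest or lowest library was compared with its nearest neighbour for 42 genes whose values are given by library and for 4 measures of the libraries, 84 groups of values in all. In 7 of these the gap took more of the range than Dixon's limit of 0.829 for 4 libraries or 0.71 for 5, and chance alone does so in about 1 group in 20.

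Brain replicate 2 stood above the other brain libraries for Apoe, at 487 CPM with the next at 305, and for Ldhb, at 479 CPM with the next at 400.3. Brain replicate 1 stood below them for Tmem119, at 3257 CPM with the next at 4919.7, and above them in the mitochondrially encoded share of counts, at 3.79% with the next at 0.868%. Sciatic nerve replicate 3 stood above its group for Ednrb, at 816 CPM with the next at 727, and sciatic nerve replicate 1 for Irf8, at 259 CPM with the next at 229. The 50 most abundant genes took 30.9% of counts in sciatic nerve replicate 3, with the next library of that tissue at 33.4%. All 5 genes had groups that did not overlap between the tissues, as did 42.5% of all genes tested. The 5 come from the genes chosen to be given by library, so this describes them alone.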

How the results depend on the processing

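The counts of genes higher or lower stayed within 1.5 times the values reported under every alternative but 1. With no scaling beyond total counts, 4678 genes were lower and 3759 were lower by at least 2-fold, the median of all genes moved by -0.444, and 30.6% of calls were higher, against 49.1% with scaling; of the 5973 calls, 85.3% were kept and 23 had the other sign. With a mean under 1 CPM in place of no read as the limit, genes found in 1 tissue alone numbered 298 for sciatic nerve and 138 for brain. DESeq2 tested 16189 genes and called 3708 higher and 3826 lower. Leaving out each library in turn gave 2672 to 3210 higher and 2613 to 3111 lower, and 2160 to 2393 higher and 2209 to 2391 lower by at least 2-fold; leaving out brain replicates 1 and 2 gave 3602 and 3271.

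The replicate number does not pair the libraries: libraries of the same number had correlations of deviations of -0.0794, 0.0642, 0.0255 and -0.00377. The fit with the replicate number as a block, on replicates 1 to 4, gave 2499 higher and 2229 lower, of which 2132 and 1965 by at least 2-fold, and 79% of calls were kept.

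Over 6584 values of named genes under alternatives, 6416 kept direction and call, 101 lost the call, 57 gained it and 10 reversed; another 127 values around 0 changed sign in genes called under neither setting and are counted among the first. Without scaling beyond total counts, genes near 0 took a negative sign, at log2 fold changes of -0.04 for Cd47, -0.39 for Dnajc3, -0.43 for Gdi2, -0.40 for Hfe, -0.42 for Mff, -0.44 for Rer1, -0.42 for Slc25a4, -0.42 for Spi1 and -0.42 for Tbxas1. Without brain replicates 1 and 2, Tyrobp turned to 0.41. The causes were not tested, apart from the shift of the median. Of 985 medians of lists under alternatives, 137 moved beyond the spread.

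Single libraries decided the calls of some named genes. The number of the 9 libraries whose removal ended the call was 8 for Cd47, 7 for P2rx7, 6 each for Cry2, Lgals9, Nr1d1, Per3 and Tlr4, 5 for Xist, 4 for Hk1, 2 each for Fcgr4 (sciatic nerve replicate 1, brain replicate 3), Flt3 (sciatic nerve replicates 3 and 4) and Hrh2 (sciatic nerve replicate 1, brain replicate 4), and 1 each for Mef2c (sciatic nerve replicate 1) and Socs5 (sciatic nerve replicate 2); edgeR's adjusted p then ran up to 0.126. Without brain replicate 1, 9 genes gained a call: Erap1, Grn, Ifnar2, Itgb2, Mef2d, Orai3, Pros1 and Siglece became lower, at log2 fold changes of -0.52, -0.35, -0.32, -0.58, -0.50, -0.56, -1.09 and -0.50, and Lamp1 higher, at 0.42. Fasn became lower without sciatic nerve replicate 3 (log2 fold change -1.35), Ifnar1 higher without sciatic nerve replicate 4 (0.53), and Irak1 and Ticam1 higher without brain replicate 2 (0.67 and 1.00). Genes under about 1 CPM rest on few reads.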
